A study of Homo sapiens with 6 samples.

Results

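Mitosis and spindle genes were chosen by name, as a set of 46 genes that drive entry into mitosis, build and check the spindle, separate the chromosomes and divide the cell. All 46 were measured, each by 1 probe set, among 15669 named genes on the array. Whole-transcript arrays, 6 in all, read total RNA of the human cell line MDA-MB-231, a triple-negative (basal, mesenchymal) breast cancer line in long use. The groups were shS100A10_5 and shS100A10_1, whose cells received different short hairpin RNAs against S100A10 by lentivirus, and shNCT, labelled the control, with 2 arrays each. Every group was grown in RPMI1640 medium with 10% serum, antibiotics and 2.5 µg/ml puromycin, so all groups compared, the control too, were under puromycin; how the control was made is not given in the sources used here. S100A10 encodes p11, an S100 family protein that partners annexin A2. The labels call the arrays of a group duplicates without naming separate cultures, so every p-value rests on a spread between arrays that may be technical.

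Cells enter mitosis when CDK1, bound to a B-type cyclin, is released from inhibition by the CDC25 phosphatases. Kinetochores, protein assemblies built on centromeres, then attach chromosomes to spindle microtubules, and the spindle assembly checkpoint holds back the anaphase-promoting complex (APC/C), a ubiquitin ligase, until attachment is complete. The APC/C then marks cyclin B and securin for destruction, which frees separase to part the sister chromatids. Most of these genes are transcribed in G2 and M phase under the MuvB complex with MYBL2 and FOXM1, and their promoters are known for the cell cycle homology region (CHR) and for CCAAT boxes, which NF-Y binds. High levels of these genes mark proliferating tumour cells, basal-like breast cancers among them.

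The knockdown itself was deep in both hairpin groups. S100A10 intensity was 13565 and 9461 with shS100A10_5, 1969 and 1545 with shS100A10_1, and 88860 and 92938 with shNCT. The array medians lay between 232 and 238. Replicate 2 of shS100A10_5 stood apart on the first principal component of all probe sets (45.2% of the variance) at 41.1, against 18.7 for replicate 1 and -18.2 to -10.0 for the other 4 arrays. All 10 mesenchymal and basal genes listed as markers of the line were above 4.98, the lower quartile of all probe set means on the log2 scale, and 6 of 10 luminal, 6 of 8 leukocyte and 4 of 8 fibroblast markers were above it too. The mean log2 level over the luminal list was 8.23 to 8.27 with shS100A10_5, 8.04 to 8.12 with shS100A10_1 and 7.88 to 7.99 with shNCT. For leukocyte markers it was 6.47 to 6.72 with shS100A10_5, 6.58 to 6.67 with shS100A10_1 and 6.36 to 6.60 with shNCT. For fibroblast markers it was 5.28 to 5.32 with shS100A10_5, 5.13 to 5.20 with shS100A10_1 and 4.93 to 5.13 with shNCT. For the mesenchymal and basal list it was 13.73 to 13.9 with shS100A10_5, 13.9 to 13.94 with shS100A10_1 and 13.82 to 13.85 with shNCT. AGR2, a luminal gene, and LYZ, a leukocyte gene, rose with both hairpins, and LGALS1, a mesenchymal gene, fell with shS100A10_5 (limma, adjusted p under 0.05). Their lists did not move as a whole. Of 10 luminal genes, 7 had negative changes with shS100A10_1 and 4 with shS100A10_5. Of 8 leukocyte genes, 4 and 3 were negative in that order, and of 10 mesenchymal and basal genes, 2 and 4. No marker was listed at 0, and the part of these markers in the results below was not tested.

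Promoters of the members with the smallest p-values in any comparison are shown because many mitotic genes share promoter elements. They are RefSeq sequences of GRCh38.p14, from 250 bases before to 50 after a start site, and capitals mark matches on either strand to 3 motifs. The CHR was searched as TTTGAA, which reads TTCAAA on the opposite strand. Its other form was TTTAAA, the same on both strands. The CCAAT box was searched by those letters, which read ATTGG on the opposite strand. UBE2C has no entry in the table used.
SPC24, chr19:11155733-11156032, minus strand: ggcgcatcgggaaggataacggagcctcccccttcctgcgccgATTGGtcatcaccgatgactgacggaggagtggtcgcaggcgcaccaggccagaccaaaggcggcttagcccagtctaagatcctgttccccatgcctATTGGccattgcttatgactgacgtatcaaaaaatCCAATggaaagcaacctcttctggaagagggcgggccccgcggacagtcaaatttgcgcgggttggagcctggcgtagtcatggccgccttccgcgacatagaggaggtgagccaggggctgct
UBE2S, chr19:55407739-55408038, minus strand: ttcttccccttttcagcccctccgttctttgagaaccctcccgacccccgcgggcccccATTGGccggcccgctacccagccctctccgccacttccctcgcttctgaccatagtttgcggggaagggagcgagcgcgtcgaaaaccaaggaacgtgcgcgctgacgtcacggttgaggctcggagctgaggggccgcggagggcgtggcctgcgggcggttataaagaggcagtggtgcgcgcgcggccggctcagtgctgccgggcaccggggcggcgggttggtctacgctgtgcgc
CDC25C (inner start), chr5:138331828-138332127, minus strand: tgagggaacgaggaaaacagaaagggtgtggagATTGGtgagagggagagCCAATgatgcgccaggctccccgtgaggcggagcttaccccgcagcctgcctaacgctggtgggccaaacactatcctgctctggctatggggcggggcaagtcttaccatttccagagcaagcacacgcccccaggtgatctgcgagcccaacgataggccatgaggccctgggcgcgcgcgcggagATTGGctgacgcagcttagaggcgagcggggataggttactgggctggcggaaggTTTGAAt
AURKB, chr17:8210200-8210499, minus strand: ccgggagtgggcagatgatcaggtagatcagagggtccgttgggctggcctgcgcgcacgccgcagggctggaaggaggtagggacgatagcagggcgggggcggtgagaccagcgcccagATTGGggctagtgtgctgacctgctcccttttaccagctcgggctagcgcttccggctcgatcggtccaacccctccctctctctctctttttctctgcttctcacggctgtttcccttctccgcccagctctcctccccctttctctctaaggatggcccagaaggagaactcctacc
KIF20A, chr5:138178862-138179161, plus strand: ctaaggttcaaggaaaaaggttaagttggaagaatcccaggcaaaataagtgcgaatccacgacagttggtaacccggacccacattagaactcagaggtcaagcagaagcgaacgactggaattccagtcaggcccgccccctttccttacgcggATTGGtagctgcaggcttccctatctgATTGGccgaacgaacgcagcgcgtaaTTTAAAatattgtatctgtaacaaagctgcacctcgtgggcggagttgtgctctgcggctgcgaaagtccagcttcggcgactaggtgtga

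In these windows SPC24 held 3 CCAAT boxes, beginning at bases -207, -109 and -74 from the start site. UBE2S held 1, at -191, and AURKB 1, at -129 in the outer of its 2 windows. None of these 3 windows held either CHR form. KIF20A, the gene of a motor of the central spindle, held TTTAAA at -41 and CCAAT boxes at -94 and -67. CDC25C had 4 windows, of which 2 held a motif, and the window at the outermost start held none. In such a case the nearest other window with a motif was printed, so the inner start shown was picked for its matches. That inner window holds 3 CCAAT boxes, at -217, -200 and -12, and TTTGAA at 44.

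Promoter windows were found for 39 of the 46 members, 49 windows in all. TTTGAA on either strand was in 28 of them (57.1%), against 15.2% of all 35116 windows and 12.4% of the 22198 windows of protein-coding genes. TTTAAA was in 26.5%, against 12.2% of all windows, and a hexamer cannot be both forms at once. A CCAAT box was in 75.5%, against 34.6%, and 55.1% held a CHR form together with a CCAAT box, against 9.27%. These matches describe letters in a window and do not show that a factor binds there. The 25 members with TTTGAA in a window had a median log2 change of -0.05 with shS100A10_5, and the 14 without it -0.23. For TTTAAA the medians were -0.12 with it (12 genes) and -0.11 without (27 genes). For the CCAAT box they ran the other way from TTTGAA, -0.12 with it (32 genes) and 0.11 without (7 genes). The median gene span was 31310 bases with TTTGAA and 14231 bases without it. For the CCAAT box the spans also ran the other way, 22620 bases with it and 49369 without. For TTTAAA they were 17843.5 bases with it and 31272 without. The part of gene length in these gaps was not tested.

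Signal in the control cells lay in the upper part of the array's range for most members. Mean log2 intensity with shNCT ran from 7.91 for HMMR, which encodes a spindle-associated hyaluronan receptor, to 15.71 for PLK1, the polo-like kinase, with a median of 12.83 over the 46 genes. All 46 lay above the median of all probe sets (7.88), HMMR only just, and 41 above their upper quartile (10.73). That median and quartile come from probe set means over all 6 arrays, not from shNCT alone. Probes differ in how brightly they report a given amount of RNA, so these levels rank signal, not transcript number. The median SD between the 2 arrays of a group was 0.08 on the log2 scale over members and groups. The log2 difference between replicates had an SD over the members of 0.259 with shS100A10_5, 0.149 with shS100A10_1 and 0.144 with shNCT. Over all probe sets it was 0.36, 0.292 and 0.287 in the same order, so the members varied less between replicates than the array as a whole.

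With shS100A10_5 against shNCT, 2 of the 46 genes fell. SPC24, a subunit of the NDC80 complex that binds microtubules at the kinetochore, and UBE2C, the ubiquitin-conjugating enzyme that starts chains for the APC/C, passed the threshold (limma over 16965 probe sets, adjusted p under 0.05), and no member rose (1.43% of all probe sets did). These 2 are 4.35% of the members, against 3.18% of all probe sets called in either direction and 1.75% called lower. The median log2 change of the 46 was -0.10, against 0.02 for all probe sets, and was -0.06 without shS100A10_5 replicate 1. Of the 46, 31 had a negative change (67.4%, against 46.7% of all probe sets), and 40 lay within 0.5 of 0, as did 83.3% of all probe sets. In RNA from whole cultures, fewer cells in G2 and M phase and less of a transcript per cell cannot be told apart.

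**Figure D1:**
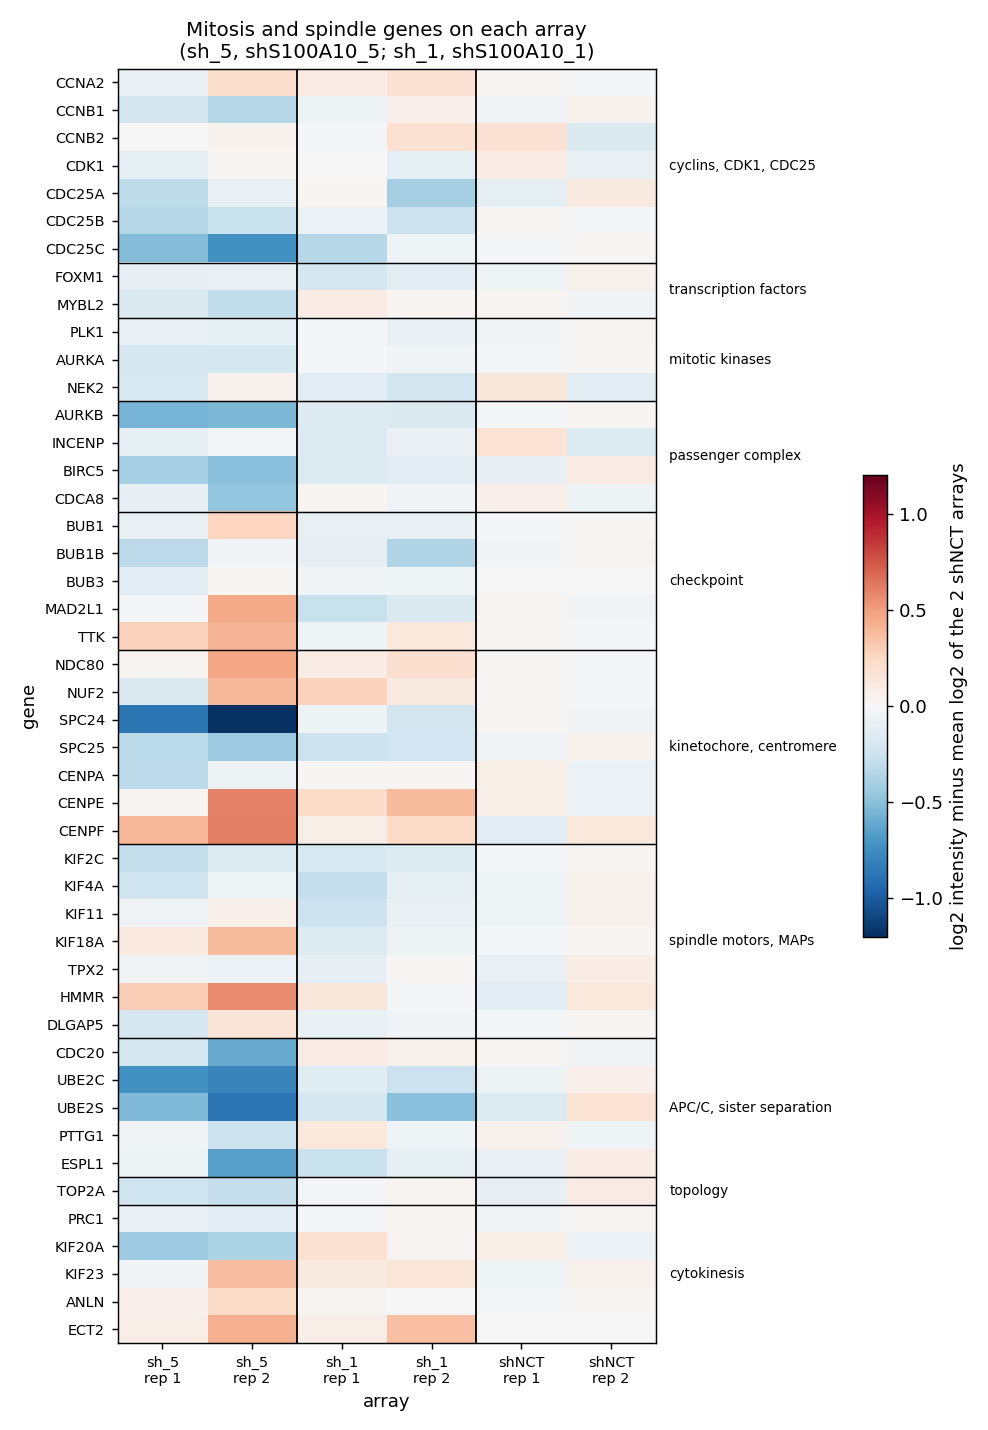
Heat map of the 46 members (rows, grouped by role) on the 6 arrays (columns), coloured by log2 intensity minus the mean of the 2 shNCT arrays. SPC24 and UBE2C are the darkest blue rows shared by both shS100A10_5 arrays, TTK, CENPF and HMMR are red on both, and the shS100A10_1 columns are pale.

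SPC24 intensity was 3294 and 2618 with shS100A10_5, 5801 and 5197 with shS100A10_1, and 6196 and 5942 with shNCT. Both shS100A10_5 arrays lay below all 4 others, whose own values lay close together. The log2 level was 11.52 ± 0.24 with shS100A10_5 and 12.57 ± 0.04 with shNCT (SD, n = 2 each), a change of -1.05 (SE 0.18, 2.07-fold lower; limma, adjusted p = 0.0211). The call was lost without shS100A10_5 replicate 2 (change -0.88, limma adjusted p = 0.145), without shNCT replicate 1 (0.116) and without shNCT replicate 2 (0.136). Over all alternatives the adjusted p ran from 0.00132 to 0.145.

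UBE2C intensity was 4754 and 4498 with shS100A10_5, 7080 and 6556 with shS100A10_1, and 7501 and 8203 with shNCT. The 3 groups did not overlap, with shS100A10_5 lowest and shNCT highest. The log2 level was 12.18 ± 0.06 with shS100A10_5 and 12.94 ± 0.09 with shNCT (SD, n = 2 each), a change of -0.76 (SE 0.17, 1.70-fold lower; limma, adjusted p = 0.0425). This call sat near the threshold. It was lost whichever array was left out, with limma adjusted p between 0.0506 without shS100A10_5 replicate 1 and 0.255 without shNCT replicate 2, and changes between -0.83 and -0.70. The limma adjusted p was 0.149 without shNCT replicate 1, 0.179 without shS100A10_5 replicate 2 and 0.0566 without either shS100A10_1 array. The call was also lost with array weights (0.0696) and with only these groups in the fit (0.0566). Over all alternatives the adjusted p ran from 0.00464 to 0.255.

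Other genes that act at anaphase had lower values with shS100A10_5 but did not pass. UBE2S, the enzyme that elongates the chains begun by UBE2C, had intensities of 6324 and 4938 with shS100A10_5, 7923 and 6457 with shS100A10_1, and 8160 and 10267 with shNCT. Its change was -0.71 (SE 0.21; limma, adjusted p = 0.0877), and both shS100A10_5 arrays lay below both controls. CDC20, the APC/C activator and the checkpoint's target, had 36867 and 27945 with shS100A10_5, 45242 and 44198 with shS100A10_1, and 43533 and 41740 with shNCT. Its shS100A10_5 arrays were lower than all others but lay far apart (change -0.41, SE 0.19; limma, adjusted p = 0.244). PTTG1, which encodes securin and has close copies in the genome, had a change of -0.15 (SE 0.18), and ESPL1, the separase gene, -0.35 (SE 0.22). All 5 genes of this group thus had negative changes, with a median of -0.41, and 1 of them passed.

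Mitotic entry genes gave mixed values. CDC25C, a phosphatase that activates CDK1, had intensities of 738 and 639 with shS100A10_5, 834 and 1022 with shS100A10_1, and 1046 and 1066 with shNCT, and its shS100A10_5 arrays were the lowest of the 6. The change was -0.62 (SE 0.18; limma, adjusted p = 0.0899). CCNB1, the cyclin B1 gene, had 10473 and 9631 with shS100A10_5, 11655 and 12734 with shS100A10_1, and 11810 and 12579 with shNCT (change -0.28, SE 0.17; limma, adjusted p = 0.383). CDK1 itself had 10599 and 11568 with shS100A10_5, 11472 and 10636 with shS100A10_1, and 12145 and 10783 with shNCT, and all groups overlapped (change -0.05, SE 0.17). Cyclin genes CCNA2 (0.07) and CCNB2 (0.02), and the phosphatase genes CDC25A (-0.20) and CDC25B (-0.31), completed this group of 7, in which 5 changes were negative and none passed.

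The 2 transcription factors of the programme lay near their control levels. FOXM1 intensity was 8745 and 8813 with shS100A10_5, 8084 and 8579 with shS100A10_1, and 9023 and 9713 with shNCT, a log2 change of -0.09 (SE 0.17; limma, adjusted p = 0.798) with shS100A10_5. MYBL2, which encodes B-MYB, had 3535 and 3245 with shS100A10_5, 4237 and 4051 with shS100A10_1, and 4079 and 3883 with shNCT, a change of -0.23 (SE 0.17; limma, adjusted p = 0.469). For MYBL2 both shS100A10_5 arrays were below the 4 others, while for FOXM1 both hairpin groups lay below the controls. Among kinase genes, PLK1 had 50686 and 49472 with shS100A10_5, 53052 and 50526 with shS100A10_1, and 52379 and 54557 with shNCT. Its change with shS100A10_5 was -0.09 (SE 0.17), that of AURKA, the centrosomal Aurora kinase gene, -0.20 (SE 0.16), and that of the centrosome kinase gene NEK2 -0.07 (SE 0.18).

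The chromosomal passenger complex corrects faulty attachments and moves to the central spindle at anaphase. Its kinase gene AURKB had intensities of 4822 and 4907 with shS100A10_5, 6403 and 6319 with shS100A10_1, and 7029 and 7209 with shNCT. Replicates lay close together and the 3 groups did not overlap, with a change of -0.55 with shS100A10_5 (SE 0.16; limma, adjusted p = 0.0946). BIRC5, which encodes survivin, had a change of -0.45 (SE 0.17; limma, adjusted p = 0.169), CDCA8, the borealin gene, -0.28 (SE 0.19), and the scaffold gene INCENP -0.07 (SE 0.18). The median of the 4 was -0.37, and none passed.

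Checkpoint and spindle genes had values on both sides of 0. BUB3, which carries BUB1 and BUB1B to kinetochores, had 43164 and 48193 with shS100A10_5, 46423 and 45893 with shS100A10_1, and 47331 and 47695 with shNCT, a change of -0.06 (SE 0.17) with overlapping arrays. BUB1B had 4847 and 5883 with shS100A10_5, 5614 and 4699 with shS100A10_1, and 5909 and 6151 with shNCT, and both hairpin groups lay below the controls (change with shS100A10_5 -0.18, SE 0.18). The checkpoint kinase genes TTK (0.34, SE 0.17; limma, adjusted p = 0.285) and BUB1 (0.09) and MAD2L1 (0.22), whose product sequesters CDC20, had positive changes. Of the 7 spindle motor and microtubule-associated genes, HMMR had the highest change (0.43, SE 0.19; limma, adjusted p = 0.218), followed by the kinesin gene KIF18A (0.25). The others were KIF11, the motor that separates spindle poles (0.01), DLGAP5 (-0.02), TPX2, the activator of Aurora A (-0.06), KIF4A (-0.14) and the microtubule depolymerase gene KIF2C (-0.22). None of these 12 genes passed.

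Within the kinetochore, subunits of a single complex had unequal values. The NDC80 complex pairs NDC80 and NUF2 with SPC24 and SPC25. SPC25 had intensities of 818 and 753 with shS100A10_5, 854 and 872 with shS100A10_1, and 993 and 1050 with shNCT, so the groups did not overlap (change -0.38, SE 0.17; limma, adjusted p = 0.225). NDC80 (0.25, SE 0.19) and NUF2 (0.11, SE 0.21) had positive changes that did not pass. CENPE, a kinetochore motor gene, had 4740 and 7007 with shS100A10_5, 5387 and 6033 with shS100A10_1, and 4863 and 4402 with shNCT. Its shS100A10_5 arrays lay far apart, the lower one between the 2 controls and the higher one above all other arrays (change 0.32, SE 0.21). CENPF, which encodes a large kinetochore protein, had the highest change of all members, 0.50 (SE 0.18; limma, adjusted p = 0.15), and CENPA, the centromeric histone gene, -0.19 (SE 0.18).

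At the central spindle, where the cell divides, KIF20A had 9694 and 10112 with shS100A10_5, 14864 and 13399 with shS100A10_1, and 13820 and 12478 with shNCT. Its shS100A10_5 arrays were below the 4 others (change -0.41, SE 0.17; limma, adjusted p = 0.206). The changes were 0.25 for ECT2, an activator of RhoA, 0.17 for the kinesin gene KIF23, 0.14 for the anillin gene ANLN and -0.11 for PRC1, which bundles microtubules. TOP2A, the topoisomerase that untangles sister chromatids, had -0.26 (SE 0.17). None of these 6 passed.

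**Figure D2:**
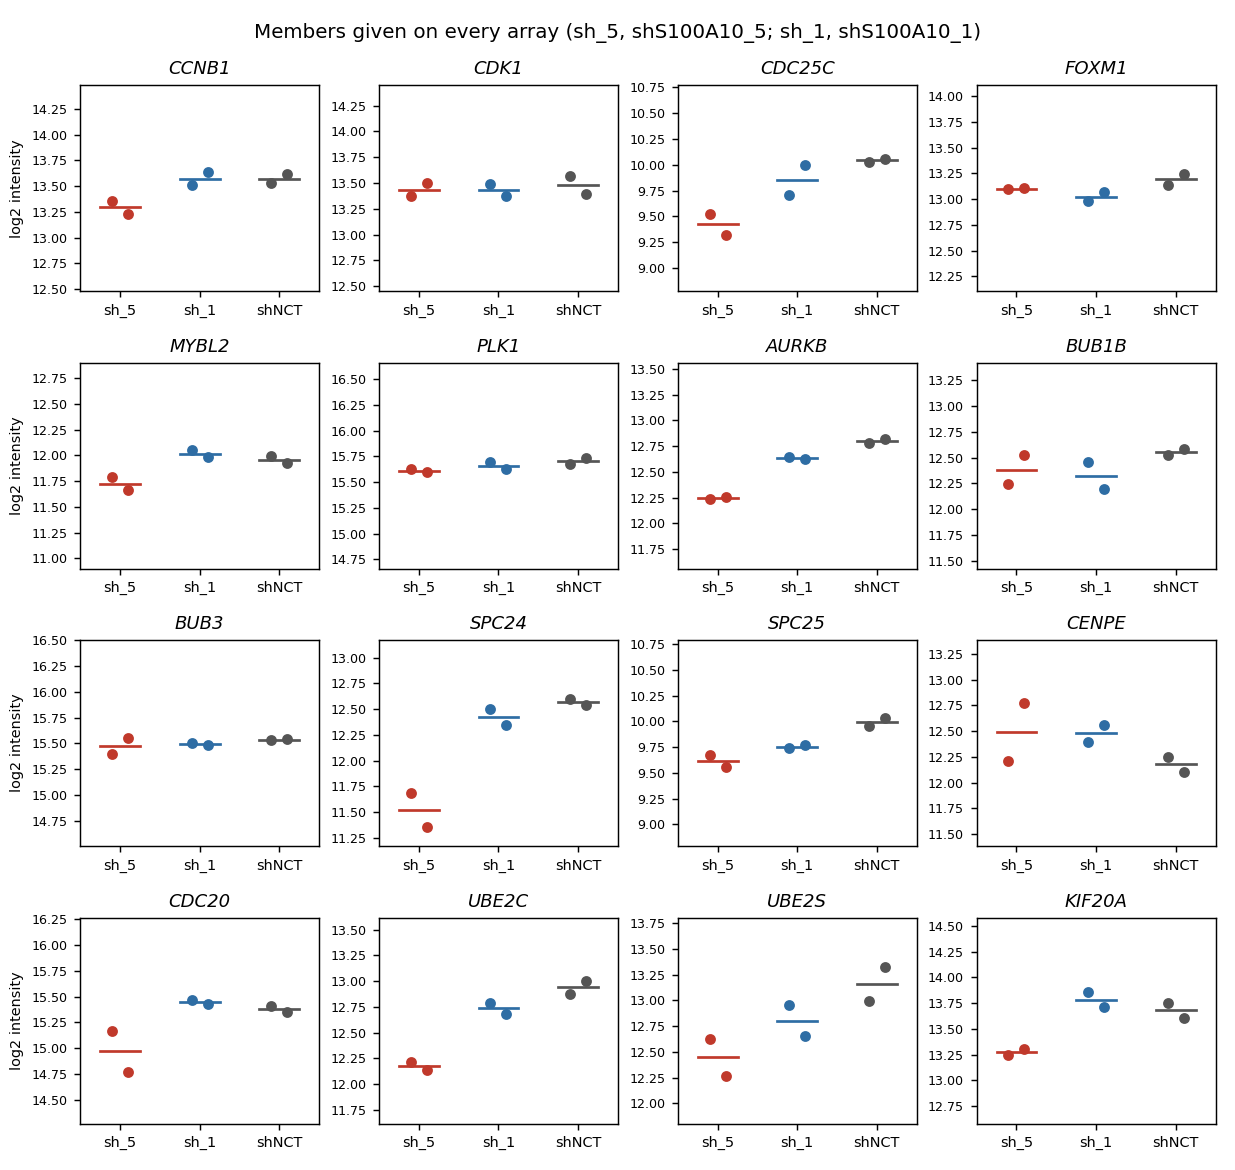
Log2 intensity of the 16 members described array by array, with a point per array and a line at the mean of each group of 2. Every panel spans the same range of log2 units. SPC24, UBE2C, AURKB, CDC25C, CDC20 and KIF20A have both shS100A10_5 points below all others, while CDK1 and BUB3 overlap.

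At an unadjusted p under 0.05, limma put 10 members apart with shS100A10_5, 8 of them lower and 2 higher (21.7% of members, against 21.0% of all probe sets). The 8 were SPC24, UBE2C, UBE2S, CDC25C, AURKB, BIRC5, KIF20A and SPC25 (17.4%, against 10.3% lower among all probe sets), and the 2 were CENPF and HMMR (4.35%, against 10.7% higher). Arrays of the groups did not overlap for 27 members (58.7%, against 50.5%), 20 of them lower (43.5%, against 23.8%) and 7 higher (15.2%, against 26.7%). The overall share of calls among the members was therefore near that of the array, with more of it on the lower side.

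With shS100A10_1 against shNCT, where S100A10 intensity was lowest, no mitotic member passed. The count was 0 of 46 by limma at an adjusted p under 0.05, against 0.189% of all probe sets called in either direction. It was also 0 at an unadjusted p under 0.05, against 8.44% (4.16% lower and 4.28% higher). All 46 changes lay within 0.5 of 0 on the log2 scale, as did 93.8% of all probe sets. Members varied less between replicates than all probe sets did, and the part of this in these shares was not tested. The median was -0.05, against 0.01 for all probe sets, and 28 of 46 were negative (60.9%, against 49.0%). The lowest change was that of UBE2S (-0.36, SE 0.21; limma, adjusted p = 0.709) and the highest that of CENPE (0.30, SE 0.21; limma, adjusted p = 0.773). SPC24 had -0.14 (SE 0.18) and UBE2C -0.20 (SE 0.17), and SPC25 and BUB1B had -0.24 (SE 0.17) and -0.23 (SE 0.18). Groups did not overlap for 27 members (58.7%, against 42.4%), 20 of them lower (43.5%, against 20.5%) and 7 higher (15.2%, against 21.9%). A missed threshold with 2 arrays a group does not show that these genes were unaffected.

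**Figure D3:**
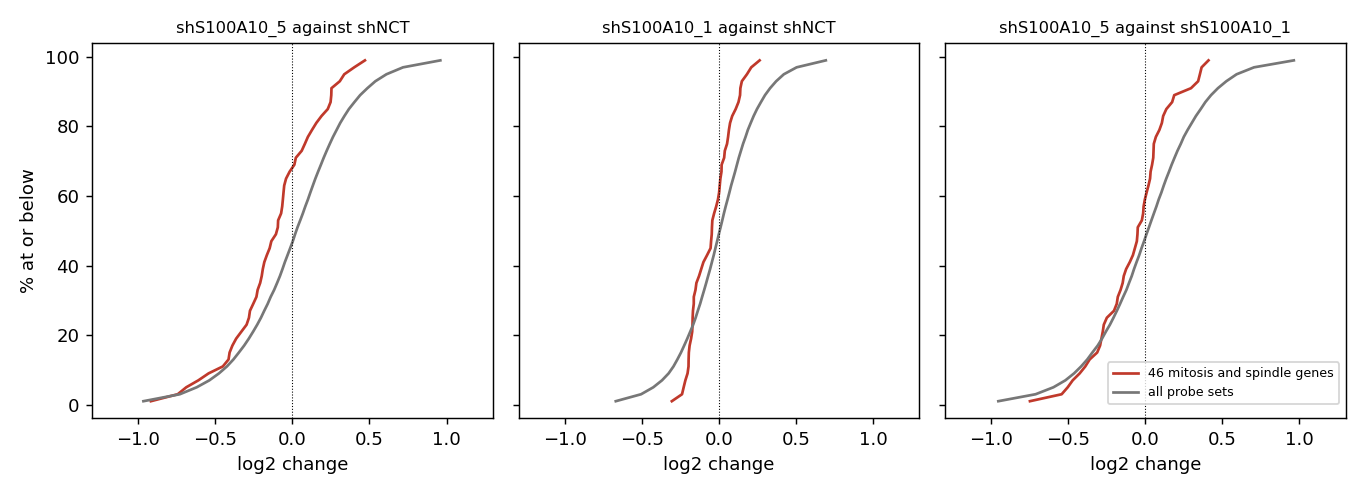
Cumulative share (per cent at or below, vertical) of log2 changes (horizontal) for the 46 members in red and all probe sets in grey, in the 3 comparisons. The red curve lies left of the grey one through its middle in the shS100A10_5 comparison, with medians of -0.10 and 0.02, and is steeper than the grey one for shS100A10_1, where all members lie within 0.5 of 0.

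Set directly against each other, the hairpins differed in SPC24. Its log2 level differed by -0.90, shS100A10_5 minus shS100A10_1, (SE 0.18; limma, adjusted p = 0.0321), and no other member passed, so 1 of 46 was called (2.17%, against 2.91% of all probe sets, 1.48% lower and 1.43% higher). The call was lost without shS100A10_5 replicate 2 (-0.74, limma adjusted p = 0.15), without shS100A10_1 replicate 1 (-0.82, 0.182) or replicate 2 (-0.98, 0.0925), and without one or both shNCT arrays (0.0593 each), and over all alternatives the adjusted p ran from 0.00334 to 0.182. UBE2C had a difference of -0.56 (SE 0.17; limma, adjusted p = 0.106), KIF20A -0.51 (SE 0.17; adjusted p = 0.136), CDC20 -0.48 (SE 0.19; adjusted p = 0.193), CDC25C -0.43 (SE 0.18; adjusted p = 0.226) and AURKB -0.39 (SE 0.16; adjusted p = 0.223). MAD2L1 had the highest difference, 0.44 (SE 0.20; limma, adjusted p = 0.242). UBE2C therefore fell with shS100A10_5 against the control, but its difference between hairpins did not pass. The median over the members was -0.05, against 0.02 for all probe sets, and 27 differences were negative (58.7%, against 48.0%). That median was 0.04 without shS100A10_5 replicate 1 and -0.10 without replicate 2. At an unadjusted p under 0.05, limma put 7 members apart (15.2%, against 19.9%). Of these, 6 were lower (13.0%, against 9.80%) and 1 higher (2.17%, against 10.1%). Groups did not overlap for 25 (54.3%, against 49.0%), 17 of them lower (37.0%, against 23.4%) and 8 higher (17.4%, against 25.6%).

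The comparisons share arrays, each hairpin being set against the same 2 controls, so the changes of a gene with the hairpins are not independent.

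Changes with shS100A10_5 ran with gene length among the members. Gene span, from RefSeq, was 4309 bases for UBE2C, 5845 for AURKB, 8044 for UBE2S and 10290 for SPC24, against 61377 for CENPF and 92533 for CENPE. CDC25C, at 53091 bases, was a long gene with a negative change, and it was not the only member off this relation. The longest member, KIF4A (130783 bases), had -0.14, BUB1B (60055 bases) -0.18 and MYBL2 (49369 bases) -0.23. The short gene MAD2L1 (11226 bases) had 0.22. The 46 genes share arrays and are not independent replicates. Across them, Spearman's rho between span and change was 0.56 with shS100A10_5 and 0.136 with shS100A10_1. Over 15665 genes of the array it was 0.173 and -0.00428. The 23 members of 27931 bases or less had a median change of -0.22 with shS100A10_5, 20 of them negative, against -0.02 for all 8025 genes in that range of span. The 23 longer members had a median of 0.01, 11 of them negative, against 0.08 for 7640 longer genes.

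Part of this moved with a single array. The deviation of shS100A10_5 replicate 2 from the mean of all arrays had a Spearman's rho with span of 0.247 over the array, against 0.0352 for replicate 1 and -0.207 to -0.00728 for the 4 other arrays. Without replicate 2, rho among the members was 0.473, against 0.081 over all genes. The medians were -0.20 for the shorter members (22 of 23 negative) and -0.08 for the longer ones (15 of 23 negative). With a smooth trend on span, fitted over all genes, removed from every array, rho among the members was 0.40. Over all genes it was -0.00232, a value set near 0 by removing that trend and so no background for the members. The medians were -0.24 for the shorter members and -0.07 for the longer ones. The change of SPC24 was then -0.998 (limma, adjusted p = 0.0265) and that of UBE2C -0.69 (limma, adjusted p = 0.054). The part of RNA quality in this relation was not tested.

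**Figure D4:**
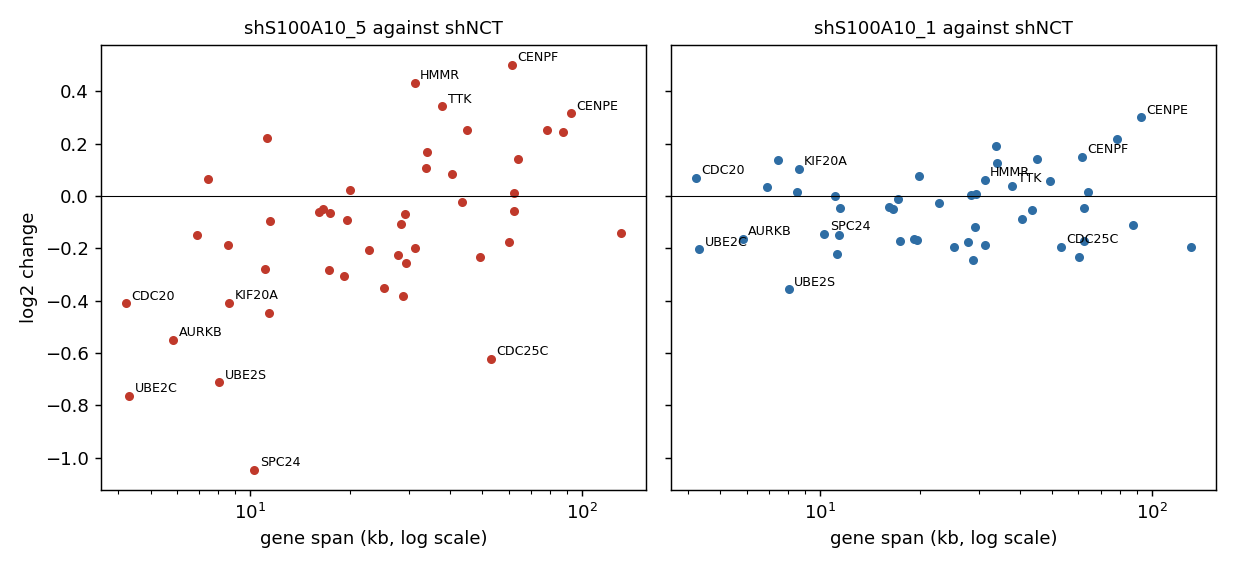
Log2 change against gene span (kb, log axis) for the 46 members, a point per gene, with shS100A10_5 on the left and shS100A10_1 on the right. The short genes SPC24, UBE2C, UBE2S and AURKB lie lowest on the left with the long gene CDC25C, and the same genes lie within 0.5 of 0 on the right.

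Mitotic genes outside the set were read from lists of neighbouring machinery. Of 114 measured in 6 such lists, 4 fell and none rose with shS100A10_5, where 1.75% of all probe sets were called lower and 1.43% higher. With shS100A10_1, 0 passed by limma, and 2 had an unadjusted p under 0.05, both higher, against 8.44% of all probe sets in either direction. Between the hairpins 2 were lower with shS100A10_5, where 1.48% of all probe sets were called lower. Their medians were -0.12 with shS100A10_5, -0.08 with shS100A10_1 and -0.02 between the hairpins. At an unadjusted p under 0.05 with shS100A10_5, limma put 23 of the 114 lower and 10 higher, where the shares of all probe sets were 10.3% and 10.7%. Among 18 APC/C subunits and inhibitors, CDC26 fell, with intensities of 595 and 537 with shS100A10_5, 1480 and 1598 with shS100A10_1, and 1696 and 1436 with shNCT. Both shS100A10_5 arrays were far below the others (change -1.47, SE 0.18, 2.76-fold lower; limma, adjusted p = 0.00684). It also differed between the hairpins (-1.44; limma, adjusted p = 0.00528). ANAPC15, which helps to release the checkpoint complex, fell by 0.86 (limma, adjusted p = 0.035). CDC23 was lower with shS100A10_5 than with shS100A10_1 (-0.99; limma, adjusted p = 0.0192), and its change against shNCT was -0.73 (limma, adjusted p = 0.0509).

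Among 25 other kinetochore and centromere genes, CENPM (change -1.09; limma, adjusted p = 0.0308) and CENPI (-0.75; limma, adjusted p = 0.0467), subunits of the constitutive centromere network, fell with shS100A10_5, and the list's median was -0.06. None passed with shS100A10_5 by limma among 18 condensin and cohesin genes (median with shS100A10_5 0.09), 26 further spindle and centrosome genes (-0.13), 16 further regulators of mitotic entry and exit (-0.21) and 11 DREAM and MuvB genes (0.13). At an unadjusted p under 0.05 with shS100A10_5, limma had 3, 4, 4 and 1 of these lower and 2, 1, 2 and 4 higher, in the order given. By the same measure 5 APC/C subunits and inhibitors were lower and 0 higher. Their list median was -0.27, and 14 of 18 changes were negative, as were 46.7% over all probe sets. Of the other kinetochore and centromere genes, 6 were lower and 1 higher. The shares of all probe sets by this measure were 10.3% lower and 10.7% higher.

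DNA replication and G1/S genes, which act earlier in the cell cycle, had more negative median changes than the mitotic set on the same arrays. Of 39 measured, 7 fell with shS100A10_5 (1.75% of all probe sets were called lower) and the median was -0.61, against -0.10 for the mitotic set. E2F1, the transcription factor of S phase entry, was among them (-1.35; limma, adjusted p = 0.0107). With shS100A10_1, 0 of 39 passed by limma, and the median was -0.13. Before adjustment, limma p fell below 0.05 for 25 of 39 with shS100A10_5, all lower (10.3% of all probe sets were lower by this measure). With shS100A10_1 it did so for 4 of 39, all lower (4.16% of all probe sets). Between the hairpins 4 of 39 passed by limma after adjustment, all lower with shS100A10_5 (1.48% of all probe sets were called lower). The difference between the replication and mitotic sets was not tested.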

How the data were processed

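The deposited table holds a normalized intensity for 16965 probe sets on 6 arrays, not on a log scale. The authors used Transcriptome Analysis Console, per the submitters' processing notes. No source used here gives its version or normalization method. The log2 of each value ends at 5 decimals, so values had been on a log2 scale. No detection calls or scan dates are given, so no batch could be tested, and the number of arrays limits the precision. The platform annotation gave 15674 probe sets 1 symbol and 1291 none, all 15674 matched to RefSeq (GRCh38.p14) by gene identifier.

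Log2 intensities were fitted with limma 3.58.1 in R 4.3.3 (lmFit, eBayes; a mean per group, all 6 arrays; 3 residual and 7.16 prior degrees of freedom), tested two-sided for 3 contrasts, with Benjamini-Hochberg adjustment across the whole array. The fit was tested on simulated data. Members and gene lists were chosen with earlier results of these data known. The naming rule covers all 46 members, gives array values for those past the threshold, the 5 smallest p-values per comparison and 7 fixed genes, and takes up to 4 called genes per list and comparison. Alternatives were other normalizations, filters, variance priors, array weights, sample sets, the replicate number as a block, a threshold of 0.1 and leaving out each array.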

Additional observations from a re-analysis of the deposited data

Results flagged for a closer look

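SPC24, the NDC80 complex subunit, differed between the hairpins by the test of the difference itself. Its log2 level differed by -0.90, shS100A10_5 minus shS100A10_1 (SE 0.18; limma, adjusted p = 0.0321), with both shS100A10_5 arrays below both shS100A10_1 arrays. The call was lost with only these 2 groups in the fit (limma, adjusted p = 0.0593). It was also lost without shS100A10_5 replicate 2 (difference -0.74), without shS100A10_1 replicate 1 (-0.82) or replicate 2 (-0.98), and without either shNCT array. With 2 arrays a group, no group could be searched for a stray array.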

How the results depend on the processing

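The count of members changed with shS100A10_5 was 2 and became 5 when the variance prior followed intensity or the threshold was 0.1, 1 with the gene span trend removed, with array weights or with the third group left out of the fit, and 0 to 1 with an array left out. The count for shS100A10_5 against shS100A10_1 was 1 and became 4 with that prior, 0 without shNCT in the fit, and 0 to 1 with an array left out. For shS100A10_1 the count was 0 under all 17 alternatives. Some alternatives could not move a log2 change: filters, variance priors, array weights, replicate block, threshold and leaving out arrays of the third group. Under the others the members' median changes moved by less than the spread between replicates (0.0602), with 1 exception. For shS100A10_5 against shS100A10_1 the median ran from -0.10 to 0.0353 with an array left out, the upper end without shS100A10_5 replicate 1. Same-numbered arrays' deviations correlated at -0.022 for shS100A10_1 with shNCT, -0.035 for shS100A10_5 with shNCT and 0.188 between the hairpins. Such correlations cannot decide whether replicate numbers pair the samples. Replicate 2 had the higher median intensity in each group (238.47 against 234.05 with shNCT, 237.02 against 232.38 with shS100A10_1, 234.66 against 231.85 with shS100A10_5). A shared effect of replicate number was not tested. With the replicate number as a block, the counts were 2 with shS100A10_5, 0 with shS100A10_1 and 1 between the hairpins. Of 2346 recomputed member values, 79 changed sign, and the largest main change among these was 0.223 in size. That total includes the alternatives that could not move a log2 change, so it overstates how far signs were tried. The cause of these moves was not tested, beyond the smaller number of arrays where groups or arrays were left out. Without detection calls, signal over background could not be judged, and 2 arrays a group limit every p-value.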
